A study of Mus musculus with 15 samples.

Results

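The tumors compared here were 3 lymphomas of EµMyc/Casp2-/- mice (lymphomas 1, 2 and 3, labelled EuMycC2ko215, EuMycC2ko239 and EuMycC2ko245) and 4 neuroblastomas of Th-MYCN/Casp2-/- mice (neuroblastomas 1 to 4, labelled MYCNC2ko118, MYCNC2ko144, MYCNC2ko176 and MYCNC2ko180), which are 7 of the 15 tumors of the series. They were chosen here by the genotype and tissue in their labels and by no measured value. The study had, however, removed a further EµMyc/Casp2-/- lymphoma because its expression correlated poorly with that of its replicates. The likeness of the 3 lymphomas is what that removal left. All 7 mice lacked Casp2, the gene of caspase-2, in the germ line, so the comparison asks how the tumor types differ when Casp2 is absent from both. The lymphomas came from cervical lymph nodes of mice of the C57BL/6 background, with onset at 9, 8 and 12 weeks. The neuroblastomas were paraspinal thoracic tumors of mice of the Sv129/C57BL6 background, with onset at 15, 18, 24 and 15 weeks, and were picked by the study for little or no visible blood supply. Each tumor came from a different mouse. Background strain, site, age and tumor type cannot be told apart in this design, and 1 of the 3 lymphoma mice but 3 of the 4 neuroblastoma mice were female. The 4 EµMyc and 4 Th-MYCN tumors that kept Casp2 enter only where stated.

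Both models rest on a transgene of the MYC family that is switched on in a single lineage. The EµMyc transgene places Myc under the enhancer of the immunoglobulin heavy chain locus, which is active from early stages of B cell development, and the mice develop B lineage lymphomas. The Th-MYCN transgene places MYCN under the promoter of tyrosine hydroxylase, the first enzyme of catecholamine synthesis, so that it is expressed in the sympathetic lineage derived from neural crest, and the mice develop neuroblastoma. B cells are set up by Pax5, Ebf1 and their partners and recognise antigen through the immunoglobulin receptor with its Cd79a and Cd79b chains. Sympathetic neuroblasts are set up by Hand2, Gata3 and related factors and make, store and release noradrenaline. Caspase-2 is an initiator caspase that is activated on the PIDDosome, a complex of Pidd1 and Cradd.

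RNA sequencing gave 4940464 to 11697757 counted reads per lymphoma, with lymphoma 1 lowest, and 10353787 to 15681695 per neuroblastoma, so 3 reads were worth 0.193 to 0.586 CPM, the unit of counts scaled to library size. Values of single tumors are CPM after scaling of library sizes, given in the order of these numbers. CPM are not corrected for gene length and are compared between tumors, not between genes. A log2 difference is the lymphoma minus the neuroblastoma group from edgeR's quasi-likelihood fit over all 15 tumors, with its standard error (SE). A gene was called with an FDR under 0.05 and a difference of over 2-fold, and the words higher and lower are used for called genes. In these bulk tumors a lower value can mean fewer cells of a type or less RNA per cell, and the options cannot be told apart. The Spearman correlation over all tested genes, given as a description, was 0.919 to 0.964 between lymphomas, 0.958 to 0.978 between neuroblastomas and 0.621 to 0.664 across the types.

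Of 14880 genes tested, 2937 (19.7%) were higher in the Casp2-/- lymphomas and 3964 (26.6%) were higher in the Casp2-/- neuroblastomas. The differences were larger on the neuroblastoma side, where the median absolute log2 difference of the called genes was 3.56, against 2.15 on the lymphoma side. A log2 difference over 5 was reached by 1334 genes higher in the neuroblastomas and by 426 higher in the lymphomas. The 7 tumors did not overlap for 2571 of the genes called higher in lymphoma and for 3785 of those called higher in neuroblastoma. Among all tested genes, called or not, every lymphoma lay above every neuroblastoma for 23.6% and every neuroblastoma above every lymphoma for 31.2%. All 4 neuroblastomas had no read on 45 of the genes called higher in lymphoma, while all 3 lymphomas had no read on 358 of those called higher in neuroblastoma. The lymphomas had fewer reads in all, so a group without reads was easier to reach there. Over the 3 lymphomas 3 reads were worth 0.111 CPM, and over the 4 neuroblastomas 0.0575 CPM. The fitted differences above include such genes and were not set to a bound. The median log2 difference over all tested genes was -0.05. Gene lists for 36 pathways, complexes and cell types are described below by their counts and medians beside these values.

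**Figure D1:**
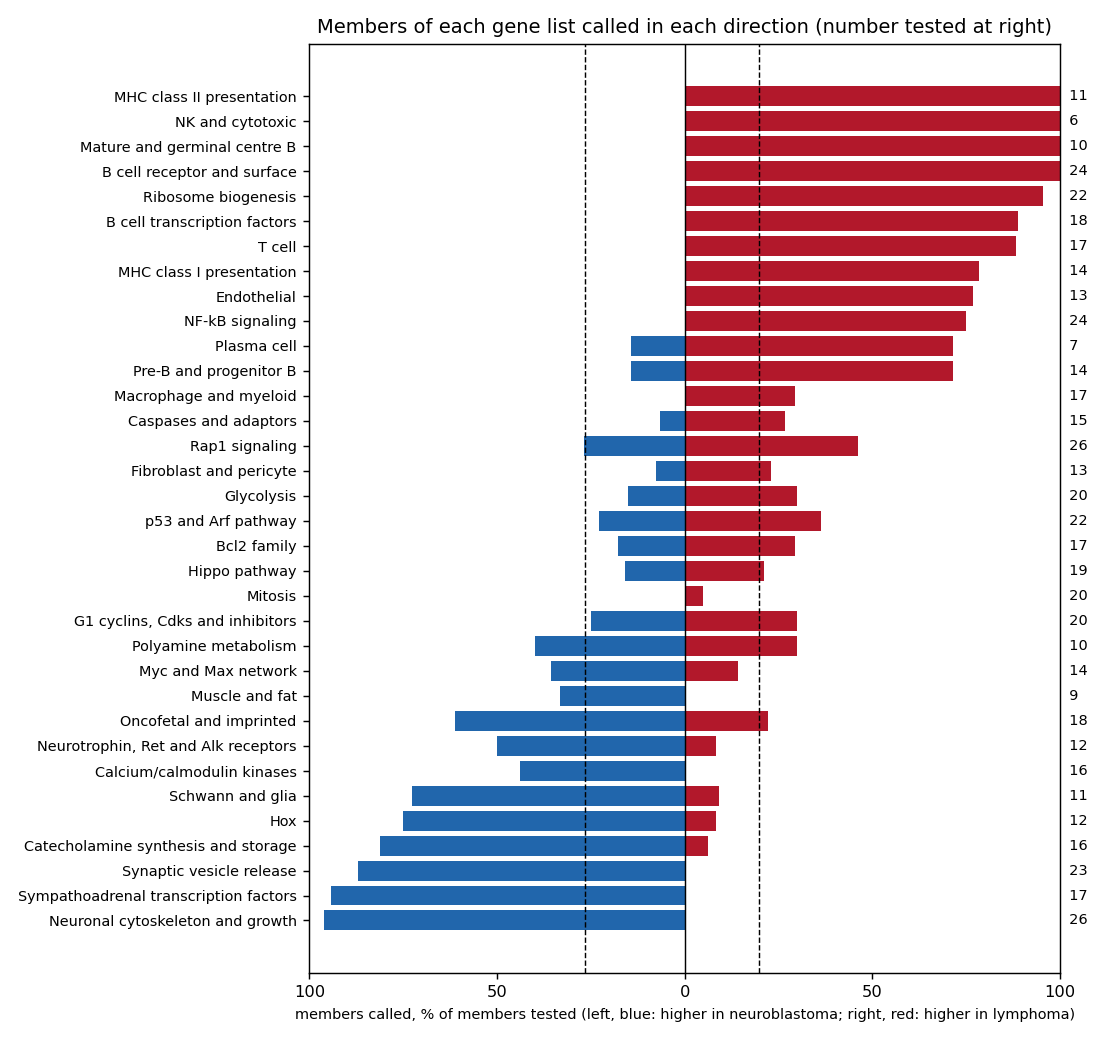
Share of the tested members of each of 34 gene lists that were called higher in Casp2-/- neuroblastoma (blue, to the left) or higher in Casp2-/- lymphoma (red, to the right), in percent, with the number of members tested at the right; dashed lines mark the shares among all tested genes, 26.6% and 19.7%. B cell, antigen presentation and ribosome biogenesis lists lie to the right, the sympathetic and neuronal lists to the left, and the mitosis list has 1 called member of 20.

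Reads on Casp2 itself (chr6:42264985-42282508 of GRCm38, plus strand) remained in all 7 tumors. Its values were 58.0, 51.9 and 76.1 CPM in the lymphomas and 80.2, 57.7, 39.6 and 54.5 CPM in the neuroblastomas, a log2 difference of 0.10 (SE 0.25, FDR 0.76). The ranges overlapped, and the difference was smaller than its SE. The counts span the whole gene and do not show whether the deleted exons were read, so they are no check of the genotype. The study itself checked the deletion in its tumors by genotyping and immunoblotting. It also reported Casp2 as significantly downregulated in its EµMyc/Casp2-/- comparison. Reads on mouse Myc and Mycn, by contrast, separated the tumors by their labels. Myc (chr15:61985391-61990374) had 498, 1346 and 1729 CPM in the lymphomas and 8.86, 4.69, 11.1 and 11.5 CPM in the neuroblastomas (log2 difference 7.05, SE 0.50, FDR 1.6e-08). Mycn (chr12:12936093-12941914) had 2.15, 0.501 and 0.101 CPM in the lymphomas and 399, 296, 229.9 and 421 CPM in the neuroblastomas (log2 difference -8.84, SE 0.60, FDR 1.13e-08). Each oncogene was high in a single tumor type and near the detection floor or at a low level in the other, and lymphoma 1 had both the lowest Myc and the highest Mycn of its group. Without lymphoma 1 the log2 difference of Mycn was -9.95, and without lymphoma 3 it was -8.25. Reads of a transgene that aligned to the mouse genome were counted with those of the mouse's own gene, so the values cannot be credited to either alone. How much of each transgene's RNA was counted is not known.

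B cell identity genes formed the clearest group on the lymphoma side. All 24 tested members of the list of B cell receptor and surface genes were higher in the lymphomas, with a median log2 difference of 5.99, and 16 of 18 B cell transcription factors were, with a median of 3.90. No member of either list was higher in the neuroblastomas. The summed CPM of the receptor and surface list was 6543 to 6985 in the lymphomas and 57.3 to 114 in the neuroblastomas. Cd79b, a signaling chain of the receptor, had 561, 569 and 763 CPM in the lymphomas and 0.504, 3.34, 0.386 and 0.487 CPM in the neuroblastomas (log2 difference 8.97, SE 0.82, FDR 2.53e-07). The 3 lymphomas were close to each other, and neuroblastoma 2 had several times the reads of the other neuroblastomas while staying far below every lymphoma. Without neuroblastoma 2 the log2 difference was 10.37 for Cd79b and 9.22 for Cd79a, whose main value was 8.54. Pax5, which commits progenitors to the B lineage, had 27.2, 50.3 and 30.5 CPM in the lymphomas, 0.0643 CPM in neuroblastoma 2 and no reads in the other neuroblastomas (FDR 8.17e-09). A single neuroblastoma read stood against 1044 lymphoma reads, a ratio of 2014-fold, counting interval 361 to 79638. Intervals of this kind are exact, at 95%, and cover counting error only.

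Ikzf1 (Ikaros), which opens the lymphoid programme, had 265, 528 and 469.7 CPM in the lymphomas and 1.87 to 3.66 CPM in the neuroblastomas (log2 difference 7.11, SE 0.42, FDR 3.33e-09). Pou2af1, the B cell partner of the Oct factors, had 571, 789.9 and 1152 CPM against 0.720, 2.38, 0.0964 and 1.38 CPM (9.44, SE 0.66, FDR 1.45e-08), and 10.09 without neuroblastoma 2. Both separated the tumor types by a wide margin in every tumor. Ebf1, the early B cell factor, was read in the neuroblastomas too, which held 15.3, 11.0, 16.5 and 11.0 CPM against 44.3, 43.4 and 72.7 CPM in the lymphomas (2.0, SE 0.45, FDR 0.00153). Pou2f2 and Bcl11a were the members not called, at log2 differences of 0.09 and -0.06 with overlapping tumors. Bcl11a had 43.0, 170 and 92.4 CPM in the lymphomas and 89.0 to 117.5 CPM in the neuroblastomas. Btk, the kinase downstream of the receptor, was 6.75 higher on the log2 scale (SE 0.41, FDR 3.95e-09) with 215.2 to 261 CPM in lymphomas and 1.66 to 3.02 CPM in neuroblastomas.

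Among the promoters of the B cell genes, those of Vpreb3 and Blnk are shown because the octamer ATTTGCAT, the sequence bound by the Oct factors that Pou2af1 works with, lies in their 300 bases around the start, and both genes were higher in the lymphomas. Vpreb3 had 160.4 to 398 CPM in the lymphomas and at most 0.900 CPM in the neuroblastomas, and Blnk 84.8 to 269 CPM against 0.864 to 3.57 CPM. The windows are from RefSeq promoters on GRCm38.p6, 5′ to 3′ on the strand of the gene, with the octamer in capitals. It begins 45 bases before the start of Vpreb3 (chr10:75948229-75948288, plus strand) and 130 bases before that of Blnk (chr19:40994318-40994377, minus strand).
Vpreb3: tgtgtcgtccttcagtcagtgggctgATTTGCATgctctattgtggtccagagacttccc
Blnk: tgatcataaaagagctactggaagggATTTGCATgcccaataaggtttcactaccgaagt
The octamer was searched on both strands and occurs in 1.97% of the 27025 genes with a RefSeq promoter. Most called B cell genes lack it in this window. It is in 0 of 13 promoters of the transcription factors, 1 of 18 of the receptor and surface genes, 1 of 11 of the pre-B and progenitor genes, 0 of 4 of the mature and germinal centre genes and 0 of 5 of the plasma cell genes. Only 78.3% of the tested genes had a promoter sequence, below the 80% needed here for a comparison of shares between gene groups, so such a comparison would be void and none is given. A match of letters is not a measured binding site.

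**Figure D2:**
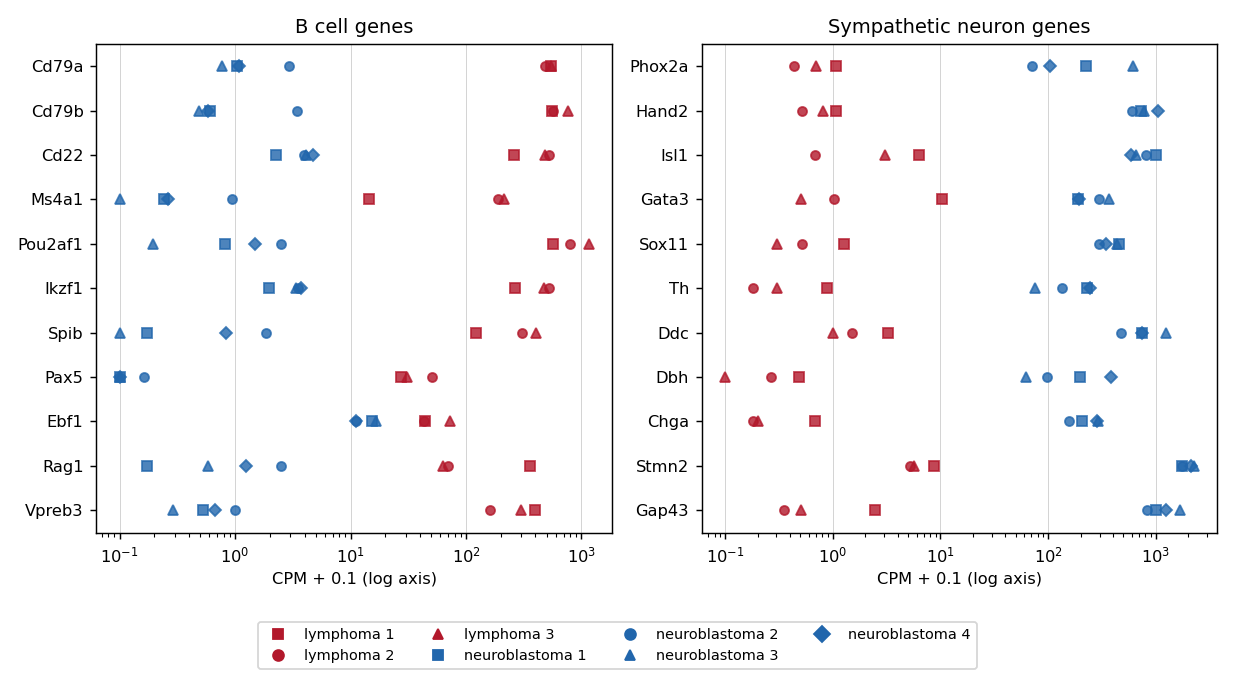
CPM + 0.1 on a log axis for B cell genes (left) and sympathetic neuron genes (right) in each of the 3 Casp2-/- lymphomas (red) and 4 Casp2-/- neuroblastomas (blue), 1 marker per tumor, with marker shapes for single tumors. The colors separate in every gene that was called with no overlap, and the B cell values of neuroblastoma 2 sit above those of the other neuroblastomas for Cd79a and Cd79b.

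Genes of several B cell stages were read in the same lymphomas. Of the 14 tested genes of the pre-B and progenitor list, 10 were higher in the lymphomas, and all 10 tested genes of the mature and germinal centre list were. Rag1, which cuts the receptor genes for recombination, had 358, 69.4 and 63.3 CPM in the lymphomas and 0.0720, 2.38, 0.482 and 1.14 CPM in the neuroblastomas (log2 difference 7.27, SE 1.42, FDR 0.000463), 6.06 without lymphoma 1 and 8.16 without neuroblastoma 2. Il7r, the receptor that keeps B cell precursors alive, had 45.7, 15.4 and 63.8 CPM against 0.386 to 1.86 CPM (5.53, SE 1.01, FDR 0.000263), 6.24 without neuroblastoma 2. Lymphoma 1 thus stood well above the others for Rag1 but not for Il7r. Igll1, the surrogate light chain of pre-B cells, was low in all tumors, with 1.56, 1.09 and 5.35 CPM in the lymphomas and at most 0.0812 CPM in the neuroblastomas (FDR 0.00836), or 74 reads against 2 (71.4-fold, counting interval 19.1 to 600.5). The fitted log2 difference of Igll1 was 5.80, and 4.75 without lymphoma 3, which had most of the reads. Of the mature genes, Ms4a1, the CD20 antigen, had 14.5, 188 and 212 CPM against at most 0.835 CPM (8.73, SE 1.33, FDR 4.91e-05), 10.18 without neuroblastoma 2, and here lymphoma 1 was the low lymphoma. Cr2, the complement receptor of mature B cells, had 3.52, 56.8 and 2.32 CPM and was called (5.26, SE 1.26, FDR 0.00223) but lost its call without lymphoma 2, at 2.49, and reached 7.43 without neuroblastoma 2.

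The pre-B and progenitor list also had members that were higher in the neuroblastomas, Sox4 and Kit. Sox4, a factor of precursors in both lineages, had 86.0, 105 and 112 CPM in the lymphomas and 508, 330.4, 184 and 417 CPM in the neuroblastomas (log2 difference -1.83, SE 0.52, FDR 0.00698), with 54.6% of its exon bases overlapped by an antisense gene. Kit, the stem cell factor receptor, had 10.4, 7.18 and 2.12 CPM against 27.1, 19.3, 10.7 and 40.1 CPM (-1.91, SE 0.56, FDR 0.00863). In both genes every neuroblastoma lay above every lymphoma, if narrowly for Kit. Cd24a, used to mark immature B cells, had 806, 1104 and 1219.9 CPM in the lymphomas and 590.4 to 849.6 CPM in the neuroblastomas and was not called (0.54, SE 0.17, FDR 0.0128), nor was Smarca4, a subunit of a chromatin remodeller (-0.04, SE 0.15, FDR 0.824). In the plasma cell list, 5 of 7 genes were higher in the lymphomas, among them Mzb1, an endoplasmic reticulum protein of antibody-making cells, with 131, 166 and 208 CPM against 0.360 to 1.09 CPM (7.92, SE 0.51, FDR 6.16e-09). Sdc1, the plasma cell surface marker CD138, was higher in the neuroblastomas, with 48.3 to 60.3 CPM against 28.7, 14.5 and 3.23 CPM (-1.83, SE 0.75, FDR 0.0482), but that call held only when no tumor or lymphoma 1 was left out, with values from -2.54 to -1.35.

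The sympathetic programme was as clear on the neuroblastoma side. Of 17 tested transcription factors of the sympathoadrenal lineage, 16 were higher in the neuroblastomas, with a median log2 difference of -8.02, or -6.42 with the gene that has no lymphoma reads set to its bound. Their summed CPM was 5756 to 7019 in the neuroblastomas and 124 to 126 in the lymphomas, most of it Sox4. Hand2, a helix-loop-helix factor of sympathetic neurons, had 0.977, 0.417 and 0.707 CPM in the lymphomas and 721, 606, 771 and 1056 CPM in the neuroblastomas (log2 difference -10.23, SE 0.47, FDR 3.1e-10). Insm2, a zinc finger factor of neuroendocrine cells, had at most 0.391 CPM in the lymphomas and 709.7 to 855 CPM in the neuroblastomas (-11.15, SE 0.28, FDR 1.4e-12). The neuroblastomas lay within a narrow band for these genes, and the lymphoma values amounted to few reads each.

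Other factors of the same list varied between tumors. Phox2a, a homeodomain factor of noradrenergic neurons, had 226, 70.8, 608 and 104 CPM in the neuroblastomas and under 1 CPM in each lymphoma (log2 difference -8.76, SE 1.00, FDR 2.71e-06), with -7.85 when neuroblastoma 3, the highest, was left out. Gata3, which also acts in T cells, had 10.2, 0.918 and 0.404 CPM in the lymphomas and 189, 296, 366 and 194 CPM in the neuroblastomas (-6.32, SE 0.84, FDR 1.25e-05). Lymphoma 1 was again the highest, and without it the difference was -8.51, while without lymphoma 2 or lymphoma 3 it was -5.71 and -5.73. Isl1, a LIM homeodomain factor of sensory and sympathetic neurons, had 6.25, 0.584 and 2.93 CPM against 1004, 803, 656 and 592 CPM (-8.02, SE 0.66, FDR 7.92e-08), -8.74 without lymphoma 1 and -7.37 without lymphoma 2.

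Genes for making and storing catecholamines followed, with 13 of 16 higher in the neuroblastomas and a median log2 difference of -6.67 (-5.49 with the gene without lymphoma reads at its bound). Th, whose promoter drives the transgene, had 0.781, 0.0835 and 0.202 CPM in the lymphomas and 227, 135, 75.9 and 246 CPM in the neuroblastomas (log2 difference -9.26, SE 1.07, FDR 3.2e-06), -10.12 without lymphoma 1 and -8.59 without lymphoma 2. Ddc, the next enzyme of the pathway, had 3.13, 1.42 and 0.909 CPM against 741, 478, 1236 and 746 CPM (-8.90, SE 0.79, FDR 1.8e-07). Dbh, which turns dopamine into noradrenaline, had 196, 97.7, 61.8 and 385 CPM in the neuroblastomas and at most 0.391 CPM in a lymphoma (-10.18, SE 1.42, FDR 2.14e-05), between -10.78 without lymphoma 1 and -9.48 without neuroblastoma 4. Neuroblastoma 3 was the lowest for Th and Dbh and the highest for Ddc. Pnmt, which makes adrenaline and marks chromaffin cells, had 8.69 CPM in neuroblastoma 4, 0 to 0.288 CPM in the others and no read in the lymphomas. Its mean was at least 20.6-fold higher in the neuroblastomas (FDR 0.0262), and the call was lost when neuroblastoma 4 or any of the lymphomas was left out. Pts, which makes the biopterin cofactor of Th, was higher in the lymphomas instead, with 41.6, 47.1 and 43.1 CPM against 9.58 to 24.2 CPM (1.46, SE 0.31, FDR 0.000828). Qdpr, which recycles the cofactor, was not called (0.12).

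The chromogranins and secretogranins fill the granules in which catecholamines are stored. Chga had 0.586, 0.0835 and 0.101 CPM in the lymphomas and 206, 158, 288 and 282 CPM in the neuroblastomas (log2 difference -10.18, SE 0.63, FDR 4.79e-09), or -11.12 without lymphoma 1. Chgb had 2.93, 0.668 and 1.51 CPM against 350.1, 257, 113 and 69.9 CPM (-7.01, SE 0.67, FDR 4.14e-07). Scg2 had 71.0, 75.7, 18.9 and 24.8 CPM in the neuroblastomas and a single read in the lymphomas, in lymphoma 1 (1381-fold, counting interval 248 to 54576, FDR 0.000127). Neuroblastomas 1 and 2 lay above neuroblastomas 3 and 4 for Chgb and Scg2 but not for Chga. The promoters of Th, Chgb and Scg2 are shown because each holds the cAMP response element TGACGTCA, here in capitals, in 300 bases around the start, and all 3 genes were higher in the neuroblastomas. The element begins 45 bases before the start of Th (chr7:142900007-142900066, minus strand), 72 bases before that of Chgb (chr2:132781544-132781603, plus strand) and 68 bases before that of Scg2 (chr1:79440061-79440120, minus strand). Sequences are RefSeq promoters on GRCm38.p6, written 5′ to 3′ along the gene.
Th: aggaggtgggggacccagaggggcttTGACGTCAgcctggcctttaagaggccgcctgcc
Chgb: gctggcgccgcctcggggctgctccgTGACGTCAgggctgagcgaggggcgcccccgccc
Scg2: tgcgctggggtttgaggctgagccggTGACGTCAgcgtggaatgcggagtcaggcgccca
The element occurs on either strand in 2.03% of all genes with a RefSeq promoter and in 3.36% of the tested genes with one. The element also lies in promoters of genes higher in the lymphomas, among them Zap70, H2-Aa, Btg2, Ppan and Ldha. It is in 4 of the 10 called catecholamine genes that have a promoter sequence. As for the octamer, no comparison of these shares is drawn.

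Of 26 genes of the neuronal cytoskeleton and of axon growth, 25 were higher in the neuroblastomas, with a median log2 difference of -8.49, and their summed CPM was 22086 to 27906 in the neuroblastomas and 86.2 to 261 in the lymphomas. Stmn2, a tubulin binding protein of growth cones, had 8.60, 5.09 and 5.55 CPM in the lymphomas and 1751, 1741, 2260.2 and 2128 CPM in the neuroblastomas (log2 difference -8.29, SE 0.36, FDR 2.33e-10). Tubb3, the neuronal beta tubulin, had 3.52, 2.42 and 6.36 CPM against 1684, 1059, 1072 and 1648 CPM (-8.37, SE 0.53, FDR 6.01e-09). Nefl, a neurofilament subunit, had 5.47, 1.42 and 1.11 CPM against 2027, 2034, 3469 and 3365 CPM (-10.16, SE 0.61, FDR 3.87e-09; -10.99 without lymphoma 1). Neuroblastomas 3 and 4 were the highest for Nefl, which overlaps an antisense gene over 32.8% of its exon bases. Uchl1, an abundant neuronal ubiquitin hydrolase, was not empty in the lymphomas, with 23.8, 7.76 and 98.4 CPM against 1603 to 2539 CPM (-5.56, SE 0.86, FDR 5.55e-05), and its difference was -7.06 without lymphoma 3. Elavl3, a neuronal RNA binding protein, had 0.584 to 1.17 CPM against 528 to 707 CPM (-9.40, SE 0.26, FDR 2.04e-12). Prph, the intermediate filament of peripheral neurons, was the member not called: it had 14.8, 3.60, 0 and 27.9 CPM in the neuroblastomas and 1.76, 0.417 and 0 CPM in the lymphomas (-4.16, SE 1.96, FDR 0.0801), so neuroblastoma 3 had no read on it.

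Of 23 genes of synaptic vesicle release, 20 were higher in the neuroblastomas, with a median log2 difference of -6.50. Snap25, the neuronal SNARE protein, had 0.586, 0.250 and 0.202 CPM in the lymphomas and 371, 352, 217 and 303 CPM in the neuroblastomas (log2 difference -9.96, SE 0.92, FDR 2.71e-07). Syp, the vesicle protein synaptophysin, had 10.5, 2.09 and 3.23 CPM against 343, 471, 486 and 474 CPM (-6.50, SE 0.54, FDR 9.11e-08; -7.33 without lymphoma 1), with 33.8% of its exon bases under an antisense gene. Cadps, which primes dense core vesicles, had no read in any lymphoma and 103 to 134 CPM in the neuroblastomas, at least 1080-fold higher (FDR 6.62e-08). Nsf, Bsn and Cplx2 were the members not called. Nsf, the general fusion ATPase, had 42.2, 71.9 and 77.4 CPM against 115 to 120.3 CPM (-0.88, SE 0.23, FDR 0.00374), below the 2-fold limit although the tumors did not overlap. Bsn, a scaffold of the release site, had 40.2, 93.2 and 104 CPM against 101 to 195 CPM (-0.86, SE 0.39, FDR 0.0668), and was called without lymphoma 3 (-1.12) or without neuroblastoma 3 (-1.01). Cplx2, a complexin, overlapped between the types, with 162, 172 and 79.2 CPM against 65.6 to 112 CPM (0.67, SE 0.48, FDR 0.242), while Cplx1 had at most 0.586 CPM in the lymphomas and 159.8 to 275 CPM in the neuroblastomas (-10.01, SE 0.84, FDR 1.05e-07; -10.94 without lymphoma 1 and -9.15 without lymphoma 2).

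The most abundant genes with no overlap and a log2 difference over 5 included many that stand in no list. On the neuroblastoma side they were Nefm, Meg3, Nefl, Uchl1, Stmn2, Tuba1a, Sytl4, Basp1, Nnat and Tubb3, of which Basp1 is a growth cone protein, Nnat an imprinted membrane protein and Sytl4 a regulator of vesicle docking. On the lymphoma side they included Cd74, Myc, Crip1, Lrmp, Arhgdib, Pou2af1, Lcp1, Pde2a and Hmha1, of which Lcp1 bundles actin and Arhgdib and Hmha1 regulate small GTPases in blood cells.

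Receptors of nerve growth were less uniform. Of 12 tested genes of the neurotrophin, Ret and Alk list, 6 were higher in the neuroblastomas and 1 in the lymphomas, with a median log2 difference of -1.81. Alk, a receptor kinase known for mutations in neuroblastoma, had 0, 0.167 and 0 CPM in the lymphomas and 159, 80.3, 58.8 and 102 CPM in the neuroblastomas (FDR 2.61e-08), or 5313 reads against 2, both in lymphoma 2 (1377-fold, counting interval 381 to 11372). Ret, the receptor for the GDNF family, had 11.1, 1.34 and 2.02 CPM against 17.2, 43.6, 39.2 and 42.8 CPM (-2.97, SE 0.63, FDR 0.000862), -4.35 without lymphoma 1. Gfra3, a coreceptor of Ret for artemin, had at most 0.417 CPM in the lymphomas and 46.7, 152, 174.6 and 314 CPM in the neuroblastomas (-9.34, SE 0.86, FDR 2.61e-07; -10.15 without lymphoma 2). Neuroblastoma 1 was the lowest of its group for Ret and Gfra3 and the highest for Alk. Ntrk2, the receptor of brain-derived neurotrophic factor, was called (-4.77, SE 0.90, FDR 0.000347), with 20.3 to 36.3 CPM against at most 1.59 CPM, -5.47 without lymphoma 2 and -4.17 without lymphoma 3. Ltk, the relative of Alk, was higher in the lymphomas, with 17.6, 28.3 and 11.8 CPM against 1.25 to 8.42 CPM (2.16, SE 0.75, FDR 0.0221), but not without lymphoma 2 (1.84) or without neuroblastoma 3 (1.85).

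Schwann and glial genes were also higher in the neuroblastomas, at 8 of 11 tested, with a median log2 difference of -4.14 and a summed CPM of 181 to 331 against 31.8 to 72.3. Sox10, the factor of neural crest and Schwann cells, had 0, 0.0835 and 0.404 CPM in the lymphomas and 13.1, 16.1, 24.7 and 26.5 CPM in the neuroblastomas (log2 difference -6.71, SE 0.93, FDR 1.88e-05), -8.24 without lymphoma 3. Cdh19, a cadherin of Schwann cell precursors, had no lymphoma reads and 6.66 to 8.57 CPM in the neuroblastomas, at least 69.1-fold higher (FDR 1.47e-05). Fabp7, a lipid binding protein of glial precursors, ranged from 6.27 CPM in neuroblastoma 1 and 14.2 CPM in neuroblastoma 2 to 39.7 CPM in neuroblastoma 4 and 62.8 CPM in neuroblastoma 3, with reads in the lymphomas only in lymphoma 2, at 0.250 CPM (250.2-fold, counting interval 85.4 to 1214, FDR 0.000131). All 4 neuroblastomas carried these reads, and their part in other results was not tested. Erbb3, the neuregulin receptor, missed the threshold (-2.45, SE 1.02, FDR 0.0507) and was called at -5.00 without lymphoma 2, the lymphoma with 3.0 CPM. Egr2, known for myelination and also for its rapid induction in lymphocytes, was higher in the lymphomas, with 7.03, 3.84 and 1.11 CPM against 0.450 to 1.46 CPM (2.18, SE 0.61, FDR 0.00632; 1.59 without lymphoma 1).

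T cell genes were higher in the lymphomas, but unevenly so. Of 17 tested, 15 were called, with a median log2 difference of 6.24. Their summed CPM was 2541 in lymphoma 1, 406 in lymphoma 2 and 278 in lymphoma 3, and 48.1 to 55.1 in the neuroblastomas. Cd8a, the coreceptor of cytotoxic T cells, had 362, 9.85 and 7.57 CPM in the lymphomas and 0.0720, 0.514, 0 and 0.0812 CPM in the neuroblastomas (log2 difference 9.33, SE 1.5, FDR 7.91e-05). Lat, an adaptor of the T cell receptor, had 482, 5.76 and 9.59 CPM against 1.74 to 2.60 CPM (6.24, SE 1.17, FDR 0.000311). Lymphoma 1 held most of the reads on both. Without it 14 genes of the list were called, with differences of 5.60 for Cd8a, 4.70 for Cd3g (8.02 with it), 2.54 for Lck (4.52), 2.65 for Cd4 (3.57) and 1.88 for Lat. Without neuroblastoma 2, Cd8a came to 10.91 and Cd3g to 9.10, and without lymphoma 2 Cd8a came to 9.95, Cd3g to 8.61 and Lat to 6.87. Other members were more even among the lymphomas. Zap70, a receptor kinase, had 73.6, 74.4 and 66.4 CPM against 0.325 to 0.386 CPM (7.58, SE 0.63, FDR 9.72e-08), and Cd2, an adhesion receptor, 105, 104 and 50.7 CPM against at most 0.450 CPM (8.92, SE 1.02, FDR 2.85e-06; 10.37 without neuroblastoma 2). Of 6 tested NK and cytotoxic genes all were higher in the lymphomas, at summed values of 14.0 to 42.6 CPM against 0.936 to 2.03 CPM. Whether T or NK cells or the lymphoma cells carried these reads was not tested.

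Myeloid genes mostly did not separate the tumors. Of 17 tested, 5 were higher in the lymphomas and none in the neuroblastomas, with a median log2 difference of 0.67, and the summed CPM of 2022, 1449 and 521 in lymphomas 1, 2 and 3 spanned the 471 to 1017 of the neuroblastomas. Lyz2, the lysozyme of macrophages, had 872, 576 and 104 CPM in the lymphomas and 166, 218, 395 and 439 CPM in the neuroblastomas (0.77, SE 0.49, FDR 0.197). C1qa, a complement component of tissue macrophages, had 272, 76.4 and 45.4 CPM against 47.4 to 113 CPM (0.67, SE 0.48, FDR 0.252), and its sign turned to -0.37 without lymphoma 1. The tumors overlapped for both, with lymphoma 3 at the low end. The called members included S100a8, a protein of neutrophils and monocytes, with 25.0, 52.8 and 35.2 CPM against at most 0.257 CPM (8.26, SE 1.17, FDR 2.4e-05; 9.17 without neuroblastoma 2). Marco, a scavenger receptor of lymph node macrophages, had 22.3, 56.9 and 19.0 CPM against 0.482 to 3.34 CPM (4.00, SE 0.70, FDR 0.000185; 3.41 without lymphoma 2). Without lymphoma 3, 8 members were called on the lymphoma side, and without lymphoma 2, 1 was called on the neuroblastoma side.

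Endothelial genes were higher in the lymphomas at 10 of 13 tested, with a median log2 difference of 1.74, beside the selection of the neuroblastomas for low blood supply. Their summed CPM was 436, 387 and 254 in the lymphomas and 66.9 to 97.5 in the neuroblastomas. Pecam1, an adhesion molecule of endothelium that B cells and myeloid cells also carry, had 121, 146 and 137 CPM in the lymphomas and 9.72, 9.32, 8.29 and 12.7 CPM in the neuroblastomas (log2 difference 3.75, SE 0.24, FDR 6.17e-09). Kdr, the receptor for vascular endothelial growth factor, had 11.5, 24.6 and 11.5 CPM against 2.95, 2.96, 2.41 and 3.01 CPM (2.49, SE 0.37, FDR 4.29e-05), and Cdh5, the endothelial cadherin, 18.9, 38.7 and 18.5 CPM against 3.98 to 10.7 CPM (1.97, SE 0.45, FDR 0.00171). The lymphomas lay above every neuroblastoma for all 3 genes. Tested against a 2-fold change, 6 members of the list were called. Fibroblast and pericyte genes gave 3 calls on the lymphoma side, 1 on the neuroblastoma side and 9 of 13 without a call, and without lymphoma 2 or neuroblastoma 2 the neuroblastoma side had 2. Col1a1, a fibrillar collagen chain, had 116, 225 and 98.3 CPM in the lymphomas and 82.0, 38.2, 78.9 and 148 CPM in the neuroblastomas (0.76, SE 0.49, FDR 0.201). Postn, a matrix protein of stroma, was the member higher in the neuroblastomas, with 77.5 to 169 CPM against 12.5, 40.4 and 17.5 CPM (-2.29, SE 0.46, FDR 0.000534; -2.88 without lymphoma 2). Acta2, the smooth muscle actin, was called higher in the lymphomas (2.12, SE 0.56, FDR 0.00439) although the lowest lymphoma, at 9.49 CPM, lay under the highest neuroblastoma, at 11.0 CPM, and its difference was 2.83 without neuroblastoma 4.

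Single tumors carried reads from further tissues. The erythroid genes Hbb-bs, a beta globin with a near-identical copy, and Alas2, the heme synthesis enzyme of red cell precursors, were both called higher in the lymphomas, a call that rested on lymphoma 3, in which Hbb-bs had 630.3 CPM against 42.8 and 10.7 CPM in the other lymphomas and 5.85 to 28.6 CPM in the neuroblastomas. Alas2 had 41.3 CPM in lymphoma 3 and 0.918 to 2.76 CPM in all other tumors. Without lymphoma 3 neither gene was called, Hbb-bs at 0.78 and Alas2 at -0.46. Neuroblastoma 1 carried muscle genes. Myh4, a heavy chain of fast muscle fibers, had 58.9 CPM in neuroblastoma 1, 0.0643 to 0.325 CPM in the other neuroblastomas and no read in the lymphomas, and Acta1, the skeletal muscle actin, had 71.7 CPM in neuroblastoma 1 and 1.93 to 2.68 CPM in the others against 0, 0.0835 and 1.11 CPM. The summed CPM of the muscle and fat list was 363 in neuroblastoma 1 and 23.6 to 34.5 in the other neuroblastomas, against 58.6 to 158 in the lymphomas. Of its 9 tested genes 3 were called higher in the neuroblastomas, 1 without neuroblastoma 1, without lymphoma 1 or without lymphoma 3, and 0 without lymphoma 2. Fabp4, the fatty acid binding protein of fat and capillaries, had 128, 52.9 and 38.8 CPM in the lymphomas and 48.3, 11.8, 8.58 and 9.34 CPM in the neuroblastomas (1.90, SE 0.87, FDR 0.0738), and was called at 2.86 without neuroblastoma 1. The list of adrenal cortex genes had 1 tested member, which was not called but was without lymphoma 1. The part of these tissues in the other results was not tested.

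**Figure D3:**
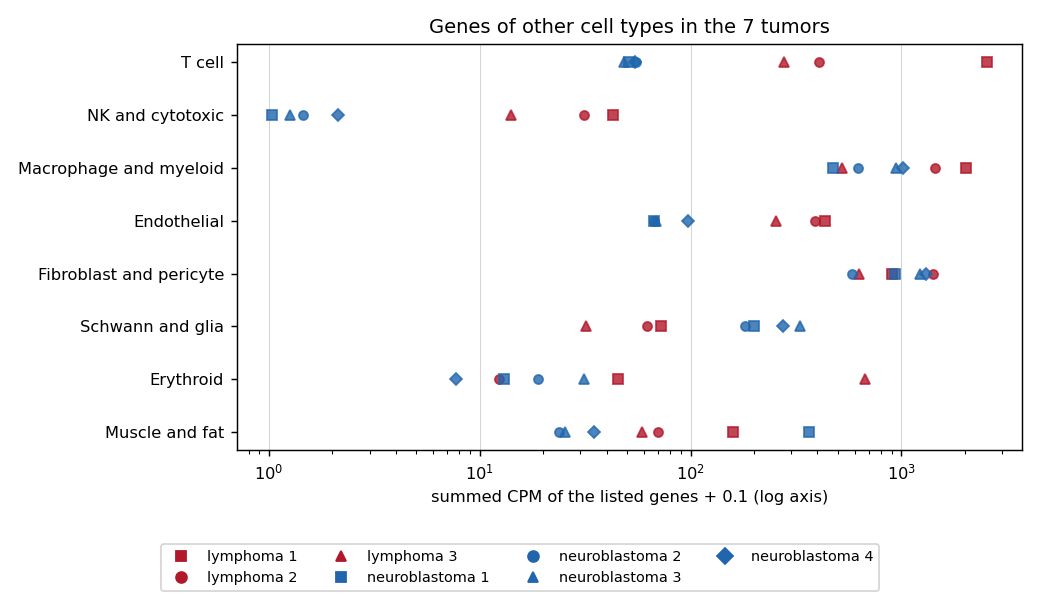
Summed CPM + 0.1 (log axis) of the genes of 8 lists of other cell types in each of the 7 tumors, red for Casp2-/- lymphomas and blue for Casp2-/- neuroblastomas, with marker shapes for single tumors. Lymphoma 1 has the highest T cell sum (2541), lymphoma 3 the highest erythroid sum (676) and neuroblastoma 1 the highest muscle and fat sum (363).

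Antigen presentation differed across both classes of molecules. All 11 genes of MHC class II presentation were higher in the lymphomas, with a median log2 difference of 5.17 and a summed CPM of 2330 to 4364 against 89.2 to 205. Cd74, the invariant chain, had 853, 1650.2 and 1130.4 CPM in the lymphomas and 13.7, 25.2, 23.8 and 50.6 CPM in the neuroblastomas (log2 difference 5.42, SE 0.74, FDR 1.63e-05). Ciita, the master factor of the class, had 13.9, 168 and 64.2 CPM against 0.648 to 1.30 CPM (6.33, SE 0.84, FDR 1.24e-05; 5.33 without lymphoma 2). Lymphoma 1 was the lowest and lymphoma 2 the highest for both. Of 14 class I genes 11 were higher in the lymphomas, with a median of 3.02. B2m, the light chain shared by class I molecules, had 475, 689 and 516 CPM against 68.9, 70.6, 117 and 95.9 CPM (2.67, SE 0.29, FDR 1.65e-06), and H2-K1, a heavy chain, 698, 617 and 473 CPM against 50.1 to 85.8 CPM (3.19, SE 0.39, FDR 5e-06). Class I genes were therefore read in every neuroblastoma, at a lower level. Psmb8, a subunit of the immunoproteasome, had 473, 262 and 304 CPM against 4.25 to 13.4 CPM (5.36, SE 0.37, FDR 1.35e-08), and Psmb9, its neighbour in the complex, differed by 5.89 (SE 0.40, FDR 1.24e-08). The members not called were 3 chaperones of the endoplasmic reticulum that serve many proteins. H2 genes are a family of close relatives, and how shared reads were split among them is not known.

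Among caspases and their adaptors, 4 of 15 were higher in the lymphomas, 1 in the neuroblastomas and 10 were not called. The median log2 difference was 0.10. Over all tested genes the shares were 19.7% and 26.6%. Casp8 (chr1:58795374-58847503), the initiator caspase of death receptors, had 99.6, 113 and 96.3 CPM in the lymphomas and 2.66, 2.31, 4.82 and 2.60 CPM in the neuroblastomas (log2 difference 5.06, SE 0.32, FDR 5.29e-09). Cflar, which restrains Casp8, had 47.7, 62.9 and 40.6 CPM against 9.02 to 13.2 CPM (2.18, SE 0.22, FDR 7.75e-07). The inflammasome genes Casp1, with 4.30, 9.10 and 32.3 CPM against 1.15 to 2.22 CPM (3.20, SE 0.62, FDR 0.000416; 2.01 without lymphoma 3), and Pycard, with 80.5, 37.8 and 24.7 CPM against 1.03 to 3.49 CPM (4.46, SE 0.68, FDR 5.08e-05), were higher in the lymphomas too. All lymphomas lay above all neuroblastomas for these 4 genes. The partners of caspase-2 in the PIDDosome were not called, with overlapping tumors. Pidd1 had 63.7 to 71.7 CPM against 62.2 to 114 CPM (-0.24, SE 0.22, FDR 0.359) and Cradd 6.51 to 11.5 CPM against 8.10 to 10.9 CPM (-0.14, SE 0.29, FDR 0.707). Apaf1, the core of the apoptosome, had 54.3, 69.7 and 57.2 CPM against 35.4 to 42.0 CPM and fell short of 2-fold (0.68, SE 0.18, FDR 0.0041).

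In the Bcl2 family 5 of 17 tested genes were higher in the lymphomas and 3 in the neuroblastomas, with a median log2 difference of 0.76. The same shares of all tested genes were 19.7% and 26.6%. The effector Bak1 had 169, 118.1 and 114 CPM in the lymphomas and 21.5, 19.5, 14.1 and 23.6 CPM in the neuroblastomas (log2 difference 2.76, SE 0.20, FDR 2.02e-08), and the BH3-only protein Bid had 141, 89.9 and 141 CPM against 23.4 to 35.1 CPM (2.03, SE 0.19, FDR 3.56e-07). Pmaip1 (Noxa) had 11.3, 26.5 and 29.2 CPM against 1.54 to 3.53 CPM (3.22, SE 0.61, FDR 0.000371). Hrk, Bcl2l2 and Bok were higher in the neuroblastomas. Hrk, a BH3-only protein of neurons, had 0, 0 and 0.101 CPM in the lymphomas and 66.8, 35.0, 120.0 and 59.1 CPM in the neuroblastomas, or 3444 reads against 1 (1785-fold, counting interval 320.2 to 70522, FDR 1.24e-08). Bcl2l2 (Bcl-w) had 9.57, 14.8 and 2.52 CPM against 85.8 to 119 CPM (-3.47, SE 0.58, FDR 0.000115), and Bok 22.1, 8.26 and 1.82 CPM against 42.4 to 109 CPM (-2.74, SE 0.69, FDR 0.00328; -3.72 without lymphoma 1). The founding member Bcl2 had 20.7, 26.3 and 20.1 CPM against 12.3 to 24.9 CPM (0.17, SE 0.56, FDR 0.813). Mcl1, another survival protein, had 440.3, 499 and 484 CPM against 193 to 351 CPM, just under 2-fold (0.93, SE 0.21, FDR 0.00156), and was called without lymphoma 1 (1.04) or without neuroblastoma 3 (1.13). Bax, the partner of Bak1, had 390.7, 162 and 127 CPM against 113 to 141 CPM (0.86, SE 0.28, FDR 0.0156), called without lymphoma 2 (1.11) or lymphoma 3 (1.13). Bcl2l1 (Bcl-x) had 95.7, 23.0 and 18.4 CPM against 72.5 to 97.9 CPM (-0.88, SE 0.46, FDR 0.113), with lymphoma 1 inside the neuroblastoma range, and was called at -1.94 without lymphoma 1. The neuroblastoma side of the family then had 5 called genes.

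The p53 and Arf genes were split, with 8 of 22 higher in the lymphomas and 5 in the neuroblastomas and a median log2 difference of 0.59. All tested genes were split as well, at 19.7% and 26.6%. Trp53 had 211, 302 and 90.5 CPM in the lymphomas and 139.8 to 172 CPM in the neuroblastomas (log2 difference 0.38, SE 0.40, FDR 0.428), and Mdm2, its ubiquitin ligase, 79.9 to 87.1 CPM against 79.4 to 101 CPM (-0.10, SE 0.18, FDR 0.655). The ranges overlapped for both. Cdkn2a (chr4:89274471-89294653), which encodes Arf and p16, had 57.6, 15.4 and 451 CPM in the lymphomas and 0.720, 11.3, 1.45 and 1.22 CPM in the neuroblastomas (5.53, SE 1.49, FDR 0.00506). Its level differed many times over among the lymphomas, with lymphoma 3 the highest and also the lowest for Trp53. Without lymphoma 3 it lost its call, at 3.25, and it came to 7.28 without neuroblastoma 2, the neuroblastoma with 11.3 CPM, and 6.15 without lymphoma 2. Cdkn1a (p21), a classic p53 target, was higher in the neuroblastomas, with 70.3, 36.2, 68.7 and 118.4 CPM against 14.3, 15.8 and 11.4 CPM (-2.41, SE 0.43, FDR 0.000229), as was the kinase Plk2, with 49.1 to 162 CPM against 12.3 to 17.6 CPM (-2.86, SE 0.58, FDR 0.000595). The targets Btg2, with 195, 154 and 227 CPM against 10.4 to 23.4 CPM (3.64, SE 0.39, FDR 1.41e-06), Trp53inp1 (2.41, SE 0.52, FDR 0.001) and Fas (3.61, SE 0.80, FDR 0.00124; 2.25 without lymphoma 1) were higher in the lymphomas. Zmat3, another target, had 36.3, 121 and 11.6 CPM against 139 to 226 CPM (-1.74, SE 0.63, FDR 0.0262), lost its call without lymphoma 1 (-1.45) or lymphoma 3 (-1.27) and reached -2.94 without lymphoma 2.

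Beside Myc and Mycn, the Myc and Max network had 1 gene higher in the lymphomas and 4 in the neuroblastomas, with 7 of 14 not called. Max, the shared partner, had 190.5, 174 and 197 CPM in the lymphomas and 104, 124, 114 and 97.2 CPM in the neuroblastomas, with no overlap but under 2-fold (log2 difference 0.77, SE 0.16, FDR 0.000822). Mycl, the third member of the oncogene family, had 2.73, 3.84 and 0.909 CPM against 66.3, 29.0, 34.4 and 65.5 CPM (-4.28, SE 0.71, FDR 0.000105). The antagonist Mxd3 had 11.4 to 15.4 CPM against 49.0 to 102 CPM (-2.28, SE 0.29, FDR 7.85e-06), and Mxi1 and Mxd1 were higher in the neuroblastomas with log2 differences of -1.16 and -1.01 (FDR 0.00863 and 0.00228). The neuroblastomas thus held more reads than the lymphomas on Mycn, Mycl and 3 antagonists. Mlxip, a glucose sensing relative, was the other gene on the lymphoma side (1.46, SE 0.23, FDR 7.38e-05). Without lymphoma 1 the calls on the neuroblastoma side were 3 in place of 5.

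Within the G1 machinery the D cyclins differed in direction. Ccnd1, cyclin D1, had 257, 240.3 and 305 CPM in the lymphomas and 1826, 1967, 2865 and 2094 CPM in the neuroblastomas (log2 difference -3.03, SE 0.22, FDR 1.97e-08), with 21.9% of its exon bases under an antisense gene. Ccnd3, cyclin D3, had 295, 119.9 and 115 CPM against 25.3, 21.8, 28.3 and 28.7 CPM (2.76, SE 0.41, FDR 4.21e-05). Ccnd2, cyclin D2, had 7.81, 19.4 and 66.3 CPM against 5.62 to 11.4 CPM and overlapped (1.80, SE 0.70, FDR 0.0379), and its call was lost without lymphoma 3, at 0.60, and without any of the neuroblastomas. Cyclins D1 and D3 thus differed in opposite directions, with no overlap for either. Of their kinase partners, Cdk4 was not called, with 422 to 618 CPM against 469 to 627 CPM (-0.12, SE 0.21, FDR 0.658, an antisense gene over 31.2% of its exon bases), and Cdk6 was higher in the lymphomas, with 8.79, 17.0 and 22.1 CPM against 0.193 to 0.325 CPM (5.83, SE 0.85, FDR 3.2e-05). Cdk2 was higher in the lymphomas as well, with 157 to 192 CPM against 27.8 to 56.3 CPM (2.19, SE 0.24, FDR 1.74e-06). The inhibitors Cdkn1b (p27), with 75.0 to 98.4 CPM against 166 to 207 CPM (-1.14, SE 0.14, FDR 6.48e-06), and Cdkn1c (p57), with 6.25, 0.835 and 3.84 CPM against 13.9 to 46.2 CPM (-3.08, SE 0.97, FDR 0.0132), were higher in the neuroblastomas. Cdkn1b stayed under 2-fold without lymphoma 1 (-0.99), and Cdkn1c was not called without lymphoma 2 (-2.51). In all, 6 of 20 genes of the list were higher in the lymphomas and 5 in the neuroblastomas, 3 without lymphoma 2. The shares among all tested genes were 19.7% and 26.6%.

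Mitotic genes barely separated the tumors. Of 20 tested, 1 was called, and the median log2 difference was 0.19. Mki67, the proliferation marker, had 566, 1272 and 1124 CPM in the lymphomas and 821, 834, 447 and 822 CPM in the neuroblastomas (log2 difference 0.43, SE 0.26, FDR 0.157). Top2a, the topoisomerase of dividing cells, had 682, 1363 and 982 CPM against 621 to 1071 CPM (0.27, SE 0.25, FDR 0.372), and Ccnb1, cyclin B1, 39.9 to 72.1 CPM against 68.6 to 87.3 CPM (-0.59, SE 0.27, FDR 0.0681). The ranges overlapped for all 3. Bub1b, a checkpoint kinase, was the call, with 193, 410.5 and 360.1 CPM against 134 to 206 CPM (1.04, SE 0.24, FDR 0.00183), and it fell under 2-fold or missed the threshold when lymphoma 2, lymphoma 3, neuroblastoma 1, neuroblastoma 2 or neuroblastoma 3 was left out, with values from 0.89 to 1.00. Cenpf, a kinetochore protein, had 102, 227 and 179 CPM against 252 to 392 CPM (-0.92, SE 0.31, FDR 0.0198) and passed 2-fold without lymphoma 2 (-1.13) or neuroblastoma 3 (-1.03).

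Genes of ribosome biogenesis had more reads in the lymphomas almost throughout. Of 22 genes 21 were higher in the lymphomas, with a median log2 difference of 1.49 and a summed CPM of 10390 to 10730 in the lymphomas and 3204 to 3937 in the neuroblastomas. Ncl, nucleolin, had 3522, 3619 and 3490.1 CPM in the lymphomas and 1354, 1147, 1051 and 933 CPM in the neuroblastomas (log2 difference 1.66, SE 0.16, FDR 5.1e-07). Npm1, nucleophosmin, had 1388, 1473 and 1320.2 CPM against 411, 315, 573 and 238.8 CPM (1.86, SE 0.26, FDR 1.94e-05). The lymphomas were nearly level with each other for both, while the neuroblastomas varied more. Ppan, a factor of the large subunit, had 517, 321 and 519 CPM against 78.8 to 109 CPM (2.23, SE 0.19, FDR 1.22e-07). Nop56, a core protein of small nucleolar particles, was not called at 0.69 (SE 0.14, FDR 0.000815), with 262, 309.8 and 327 CPM against 150.4 to 218 CPM and no overlap.

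In polyamine synthesis the enzymes split. Odc1, the first enzyme, had 265, 182 and 181 CPM in the lymphomas and 88.6, 88.9, 50.8 and 110.0 CPM in the neuroblastomas (log2 difference 1.31, SE 0.22, FDR 0.000127), and Srm, spermidine synthase, 420.2, 327 and 344 CPM against 153 to 186 CPM (1.13, SE 0.18, FDR 6.25e-05). Sms, spermine synthase, was higher in the neuroblastomas, with 78.8 to 135 CPM against 37.1 to 52.2 CPM (-1.31, SE 0.27, FDR 0.00062). So were Oaz2, an antizyme that restrains Odc1 (-1.72, SE 0.22, FDR 8.02e-06), and Azin2, an inhibitor of antizymes, with 17.5 to 46.3 CPM against 1.17 to 1.41 CPM (-4.81, SE 0.40, FDR 9.76e-08). In all 3 of 10 genes were higher in the lymphomas and 4 in the neuroblastomas, beside 19.7% and 26.6% of all tested genes. Paox, a polyamine oxidase, was the third on the lymphoma side at 1.37 (SE 0.51, FDR 0.0306), but it overlapped and dropped to 0.61 without lymphoma 1. It also lost its call without neuroblastoma 1 (1.28), neuroblastoma 2 (1.26) or neuroblastoma 3 (1.31).

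In glycolysis the hexokinases were called in opposite directions. Of other enzymes with paired forms, Aldoa (-0.10), Pfkp (-0.78) and Pfkm (1.15) were not called, and Aldoc was higher in the neuroblastomas (-1.90). Hk2 had 111, 105 and 107 CPM in the lymphomas and 16.5, 9.06, 11.1 and 12.6 CPM in the neuroblastomas (log2 difference 3.13, SE 0.27, FDR 1.16e-07). Hk1, the hexokinase of most tissues, had 29.9, 23.5 and 15.3 CPM against 196, 243, 149 and 255 CPM (-3.21, SE 0.59, FDR 0.000259). Ldha, the lactate dehydrogenase of muscle and tumors, had 1498, 1218 and 1506 CPM against 388, 443, 228 and 372 CPM (1.98, SE 0.25, FDR 7.85e-06). Ldhb, its heart form, had 42.4 CPM in lymphoma 1, 0.334 and 0 CPM in lymphomas 2 and 3, and 55.1, 44.6, 63.6 and 35.9 CPM in the neuroblastomas. With all tumors it was not called (-1.86, SE 1.21, FDR 0.201), and without lymphoma 1 it was, at -7.99. The lactate carriers also differed in form. Slc16a1 had 469, 485 and 499.7 CPM against 61.4 to 103 CPM (2.74, SE 0.25, FDR 2.62e-07), and Slc16a3 3.94 to 8.79 CPM against 21.5 to 55.2 CPM (-2.62, SE 0.63, FDR 0.00234). Of 20 glycolysis genes 6 were higher in the lymphomas, 3 in the neuroblastomas and 11 were not called. Slc2a1 and Tpi1 were among the 6, by just over 2-fold (1.05 and 1.04). Shares among all tested genes were 19.7% and 26.6%.

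Promoters of Nop2, a nucleolar methyltransferase that was higher in the lymphomas (276 to 397 CPM against 91.2 to 100.3 CPM, log2 difference 1.81, SE 0.16, FDR 1.75e-07), and of Ldha are shown for the E box CACGTG, the core sequence bound by Myc with Max. The E box, in capitals, begins 60 bases before the start of Nop2 (chr6:125131797-125131854, plus strand) and 145 and 48 bases before that of Ldha (chr7:46845633-46845690 and chr7:46845730-46845787, plus strand), from RefSeq on GRCm38.p6.
Nop2: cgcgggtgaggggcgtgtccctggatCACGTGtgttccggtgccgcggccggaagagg
Ldha, upstream: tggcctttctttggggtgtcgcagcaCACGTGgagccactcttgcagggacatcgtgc
Ldha, near the start: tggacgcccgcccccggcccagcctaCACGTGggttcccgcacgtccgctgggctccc
The E box reads the same on both strands and occurs in 8.09% of all genes with a RefSeq promoter, so a match in any promoter is common. Among the tested genes with a promoter its share is 11.3%. The E box also lies in promoters of genes higher in the neuroblastomas, among them Sms, Lin28b, Plagl1 and Rap1gap. It is in 4 of 17 promoters of the called ribosome biogenesis genes and 2 of 9 of the called glycolysis genes. No comparison of these shares is drawn here either. The Ets core CCGGAAGT, also searched on both strands, occurs in 4.31% of them.

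Imprinted and oncofetal genes were mostly higher in the neuroblastomas, at 11 of 18 tested, with a median log2 difference of -5.35. Genes along the imprinted cluster on chromosome 12 were among them. The paternally expressed gene Dlk1 (chr12:109452823-109463336), a membrane protein of fetal tissues and chromaffin precursors, had 1.95, 2.003 and 0.707 CPM in the lymphomas and 807, 408, 615 and 81.3 CPM in the neuroblastomas (log2 difference -8.28, SE 1.31, FDR 7.1e-05). The maternally expressed long RNA Meg3 (chr12:109541001-109571726) had 9.96, 4.34 and 3.84 CPM against 3707, 3168, 2892 and 2381 CPM (-9.03, SE 0.51, FDR 2.19e-09), and Rian, a host of small nucleolar RNAs further along (chr12:109603940-109661716), 4.69, 2.09 and 1.11 CPM against 1671, 1478, 1449.8 and 832 CPM (-9.12, SE 0.58, FDR 6.16e-09). Neuroblastoma 4 was the lowest for all 3, most markedly for Dlk1. Mirg (chr12:109729764-109749460) and Rtl1 (chr12:109589193-109600330) of the same cluster were higher in the neuroblastomas too, at 67.7 to 96.9 CPM and 21.6 to 30.4 CPM, with at most 1.17 CPM and 0.167 CPM in the lymphomas. So were Ndn, Peg3 and Plagl1, imprinted genes of other chromosomes, with 438 to 1445, 45.3 to 270.1 and 123 to 172 CPM against at most 3.52, 0.808 and 0.202 CPM.

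H19 (chr7:142575529-142578143), the maternally expressed RNA next to Igf2, had 678, 71.7 and 0.909 CPM in the lymphomas and 4.54, 0.0643, 0.193 and 1.30 CPM in the neuroblastomas (log2 difference 7.33, SE 1.61, FDR 0.00119). The lymphomas ranged from the highest value of all tumors to one inside the neuroblastoma range, and the difference was 4.61 without lymphoma 1 and 8.90 without neuroblastoma 1. Igf2 itself had at most 1.17 CPM in any of the 7 tumors and was not called (2.09, SE 1.13, FDR 0.126). Lin28b, which blocks let-7 microRNAs and is known as a neuroblastoma oncogene, had 0, 0.167 and 2.02 CPM against 60.9, 54.2, 36.3 and 25.5 CPM (-5.79, SE 1.76, FDR 0.0107), -8.50 without lymphoma 3 and -5.16 without lymphoma 2. Igf2bp3, an oncofetal RNA binding protein, was higher in the lymphomas, with 25.6, 33.1 and 69.6 CPM against 2.99 to 4.39 CPM (3.56, SE 0.67, FDR 0.000332), with an antisense gene over 35.2% of its exon bases. Hmga1 and Igf2bp2 were higher there as well, at no more than 4.85 CPM in any tumor.

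Of 39 Hox genes, which set position along the body axis, 27 missed the filter. They included Hoxb6, at 9.99 CPM in lymphoma 3, and Hoxa3, at 4.69 CPM in lymphoma 1, both under 1 CPM in every other tumor. Among the 12 tested, 9 were higher in the neuroblastomas and 1 in the lymphomas. The lymphoma side had 2 in the likelihood ratio test, in DESeq2, with other filters or count columns and without lymphoma 2. Hoxc4 (chr15:103018934-103036852) had 1.95, 0.167 and 0.505 CPM in the lymphomas and 55.7, 53.1, 33.6 and 111 CPM in the neuroblastomas (log2 difference -6.46, SE 0.81, FDR 7.48e-06; -7.50 without lymphoma 1 and -5.77 without lymphoma 2). Hoxd9 had 0.586, 1.59 and 0.909 CPM against 48.4, 11.4, 28.1 and 45.2 CPM (-4.94, SE 0.92, FDR 0.000302). Neuroblastoma 3 stood apart for Hoxc8 and Hoxc9. Hoxc8 (chr15:102990607-102994111) had no lymphoma reads and 10.4, 25.1, 0.0964 and 28.1 CPM in the neuroblastomas, at least 143-fold higher (FDR 0.000726), and Hoxc9 (chr15:102976439-102985099) had 5.91, 21.3, 0 and 17.1 CPM with its only lymphoma read in lymphoma 2. The other 3 neuroblastomas read both genes, and neuroblastoma 3 had 1 read on the former and none on the latter. Hoxb4, a factor of blood stem cells, was the gene on the lymphoma side, with 4.49, 2.84 and 10.1 CPM against 0.643 to 0.894 CPM (2.93, SE 0.53, FDR 0.000216; 2.24 without lymphoma 3).

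Of the signaling lists, NF-kB was the most one-sided, with 18 of 24 genes higher in the lymphomas, none in the neuroblastomas and a median log2 difference of 1.82. Nfkb1, a subunit of the factor, had 111, 185 and 110.3 CPM in the lymphomas and 31.5, 42.5, 36.5 and 35.7 CPM in the neuroblastomas (log2 difference 1.89, SE 0.22, FDR 3.48e-06). Rela, the main activating subunit, had 96.5, 113 and 51.8 CPM against 55.1 to 71.0 CPM and was not called (0.49, SE 0.23, FDR 0.0825). Tnf, a ligand that activates the pathway, had 24.6, 9.85 and 0.707 CPM against 0.0720 to 0.406 CPM (5.40, SE 0.99, FDR 0.000261; 4.34 without lymphoma 1).

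Rap1 signaling, which controls integrin adhesion, had 12 of 26 genes higher in the lymphomas and 7 in the neuroblastomas. Among all tested genes these shares were 19.7% and 26.6%. Rasgrp2, an activator of Rap1 in blood cells, had 431, 303 and 184 CPM in the lymphomas and 2.16 to 4.50 CPM in the neuroblastomas (log2 difference 6.58, SE 0.48, FDR 2.19e-08), and Sipa1, which switches Rap1 off, 397, 350.3 and 169 CPM against 12.6 to 29.4 CPM (3.87, SE 0.36, FDR 3.32e-07). Rap1gap, with the same action in neurons, had 1.09 to 2.73 CPM against 8.68 to 20.9 CPM (-3.07, SE 0.55, FDR 0.000214). The talins, which join integrins to actin, parted by form. Tln1 had 364, 433 and 280.1 CPM against 68.1 to 104 CPM (2.13, SE 0.20, FDR 3.1e-07), and Tln2 2.62 to 14.4 CPM against 288 to 459 CPM (-5.14, SE 0.70, FDR 1.62e-05).

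In the Hippo pathway 4 of 19 genes were higher in the lymphomas, 3 in the neuroblastomas and 12 were not called. These counts stand beside 19.7% and 26.6% of all tested genes. The kinase Stk4 had 183, 390.3 and 429.9 CPM in the lymphomas and 59.1 to 77.2 CPM in the neuroblastomas (log2 difference 2.29, SE 0.23, FDR 8.37e-07), and the factor Tead1 had 2.42 to 6.26 CPM against 76.4 to 107 CPM (-4.49, SE 0.39, FDR 1.37e-07). Yap1, the coactivator that Stk4 restrains, had 22.5, 8.26 and 4.85 CPM against 3.96 to 7.64 CPM (1.09, SE 0.48, FDR 0.0656) and was called without lymphoma 2 (1.36), lymphoma 3 (1.46) or neuroblastoma 4 (1.34). Of 16 calcium/calmodulin kinase genes 7 were higher in the neuroblastomas and none in the lymphomas. Camk2b, the neuronal beta subunit, had 4.88, 2.50 and 16.2 CPM against 150.4 to 198 CPM (-4.46, SE 0.91, FDR 0.000668; -5.65 without lymphoma 3), and Calm2, a calmodulin gene, 165, 246 and 294 CPM against 579 to 956 CPM (-1.76, SE 0.24, FDR 1.64e-05). Camk2a, the alpha subunit of brain, had 10.5, 13.5 and 4.24 CPM in the lymphomas and 2.95, 4.69, 0.482 and 1.79 CPM in the neuroblastomas and was not called (1.90, SE 0.85, FDR 0.0657), or was at 2.40 without neuroblastoma 2. The tumors overlapped for Camk2a and did not for Camk2b.

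Some of these differences were exchanges between relatives, so 36 pairs of a blood cell gene and its paralog were set side by side. Of the 34 pairs with both members tested, 14 had the blood cell member higher in the lymphomas and the other higher in the neuroblastomas. No pair had the reverse, 1 had both members higher in the lymphomas (Fli1 and Erg), 4 had both higher in the neuroblastomas and 15 had at least 1 member not called. Rac2, the Rac protein of blood cells, averaged 464 CPM in the lymphomas and 6.29 CPM in the neuroblastomas, while Rac3 averaged 5.38 and 42.9 CPM (log2 differences 6.21 and -3.02). Coro1a, a coronin of lymphocytes, averaged 1801 and 63.3 CPM and its neuronal relative Coro2b 2.11 and 68.3 CPM (4.83 and -4.98, the latter -5.74 without lymphoma 2). Dock2 and Dock3, guanine exchange factors of lymphocytes and of neurons, differed by 5.36 and -5.85, and Plcg2 and Plcg1, phospholipases downstream of receptors, by 5.85 and -2.64. Vesicle proteins parted in the same way. Snap23 averaged 31.2 and 10.7 CPM and Snap25 0.346 and 311 CPM (1.55 and -9.96), and Vamp8 averaged 99.6 and 7.25 CPM and Vamp2 74.3 and 615 CPM (3.78 and -3.05, the former 3.09 without lymphoma 1). Some exchanges were narrow. Elmo1 was 2.18 higher in the lymphomas, but Elmo2 at -1.21 was under 2-fold without lymphoma 1 (-0.99), and Nap1l1 at 1.05 was not called without neuroblastoma 4 (1.00). The pairs were chosen for known expression in blood and in neurons and with earlier results of these data known. The count therefore describes these pairs only and is no support for a general exchange. Among all tested genes 19.7% were higher in the lymphomas and 26.6% in the neuroblastomas.

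**Figure D4:**
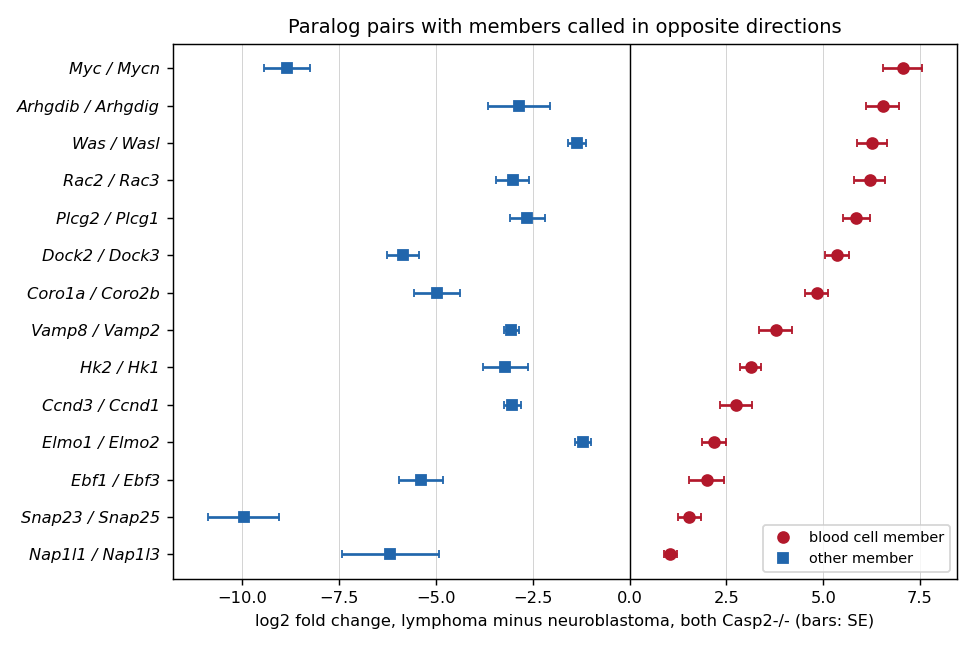
Log2 fold change (lymphoma minus neuroblastoma, both Casp2-/-) of both members of the 14 paralog pairs called in opposite directions, with bars for the standard error of the fit. The blood cell members lie right of 0 and their partners left of 0, from Myc at 7.05 and Mycn at -8.84 to Nap1l1 at 1.05.

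The tumors of a type were not equally alike. The median SD of log2 CPM over the tested genes was 0.515 among the 3 lymphomas and 0.340 among the 4 neuroblastomas, and 68.2% of the genes had the larger SD in the lymphomas. Lymphoma 1, which also had the fewest reads, lay at least 4-fold above both other lymphomas for 447 genes and 4-fold below both for 561. The same counts were 122 and 63 for lymphoma 2 and 108 and 310 for lymphoma 3. Of the neuroblastomas, neuroblastoma 3 was farthest from its group, with 35 genes above and 183 below, and it was the tumor with the latest onset. For the others they were 28 to 50 above and 11 to 41 below. Lymphoma 1 was apart in T cell genes, Rag1, H19, Ldhb and Bcl2l1, lymphoma 3 in Cdkn2a, Uchl1 and erythroid genes, and neuroblastoma 1 in muscle genes. The source of this spread was not tested.

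The same comparison in tumors that kept Casp2 rests on 8 other tumors. There, 2723 genes were higher in EµMyc lymphomas and 4135 in Th-MYCN neuroblastomas. Of the genes called in the Casp2-/- tumors, 2258 were called the same way on the lymphoma side (76.9% of the Casp2-/- calls and 82.9% of the others) and 3519 on the neuroblastoma side (88.8% and 85.1%). A further 1116 genes were called in the Casp2-/- tumors but not in those with Casp2, and of these 1 differed by the test of the difference itself, the interaction of tumor type and genotype. The gene was Vill. Another 8 genes were called in opposite directions in the 2 comparisons. Of these Rcn1, Pitpnm2 and Amy1 passed the interaction test, and Krt17, Abcc2, Mitf, Kcnk1 and Mmp12 did not (FDR 0.318 to 0.319; these 5 were named after their values were seen). Krt17 and Abcc2 overlapped between the Casp2-/- tumor types, and Krt17, a keratin with 36.9 CPM in lymphoma 1 and at most 1.38 CPM in the other 6 tumors, turned from 4.53 to -3.17 without lymphoma 1. Over all genes the interaction test called 8, or 0.0538% of those tested, and 1127 genes had an unadjusted p under 0.05. In edgeR's likelihood ratio test 136 genes passed and in DESeq2 123, and without lymphoma 3 the quasi-likelihood test called 28. Without lymphoma 1 the count was 6, and without any other of the 7 tumors it was 4 or 5.

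The 8 genes took different forms. Rcn1 (chr2:105386291-105399319), a calcium binding protein of the endoplasmic reticulum, had 52.7, 50.1 and 59.0 CPM in the Casp2-/- lymphomas and 8.57, 11.2, 7.23 and 11.2 CPM in the Casp2-/- neuroblastomas (log2 difference 2.49). In tumors with Casp2 the order was reversed, at 30.2 to 52.9 CPM in the lymphomas and 97.0 to 257 CPM in the neuroblastomas (-2.25, interaction 4.74, FDR 8.28e-05). Pitpnm2, a phosphatidylinositol transfer protein, reversed by its lymphoma values, with 4.74 to 7.93 CPM in the Casp2-/- lymphomas and 70.5 to 161.5 CPM in those with Casp2, beside 23.3 to 65.3 CPM in all neuroblastomas (interaction -4.58, FDR 0.00125). Amy1, an amylase, had 1.31 to 1.75 CPM in the Casp2-/- lymphomas and 598, 531 and 1532 CPM in 3 of those with Casp2, but 3.24 CPM in the fourth (interaction -9.25, FDR 0.046). Prdm16, a zinc finger factor of stem cells and brown fat, was called between the tumor types with Casp2 but not without it. It had 13.9, 11.0 and 23.8 CPM in the Casp2-/- lymphomas and 10.0 to 15.6 CPM in the Casp2-/- neuroblastomas (0.22, SE 0.38, FDR 0.64), whereas tumors with Casp2 had 0.350 to 1.11 CPM and 13.6 to 27.5 CPM (interaction 5.27, FDR 0.00076). Vill, a villin relative, had 17.5 to 29.7 CPM in the Casp2-/- lymphomas and 0.514 to 2.76 CPM in all other tumors (interaction 4.01, FDR 0.0301). Ccdc30, St7 and Tmem181b-ps were higher in neuroblastoma with and without Casp2, with interactions of 5.11, -2.49 and 2.19 (FDR 0.0113, 0.0301 and 0.046). Rcn1, Prdm16 and Pitpnm2 kept their interaction calls under every alternative that could test the interaction, which the fit to the 7 tumors alone could not. Ccdc30 kept its call whichever of the 7 tumors was left out but not with the other count columns. Amy1 lost its call in all 7 fits that left out a tumor (FDR 0.0569 to 0.162), Tmem181b-ps in 6 of 7 and Vill and St7 in 5 of 7. All 4 lost it against 2-fold, and Amy1, Vill and Tmem181b-ps also with sex as a covariate and with either other count column. Tmem181b-ps is a pseudogene and Amy1 has a close relative, so how shared reads were split for them is uncertain.

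**Figure D5:**
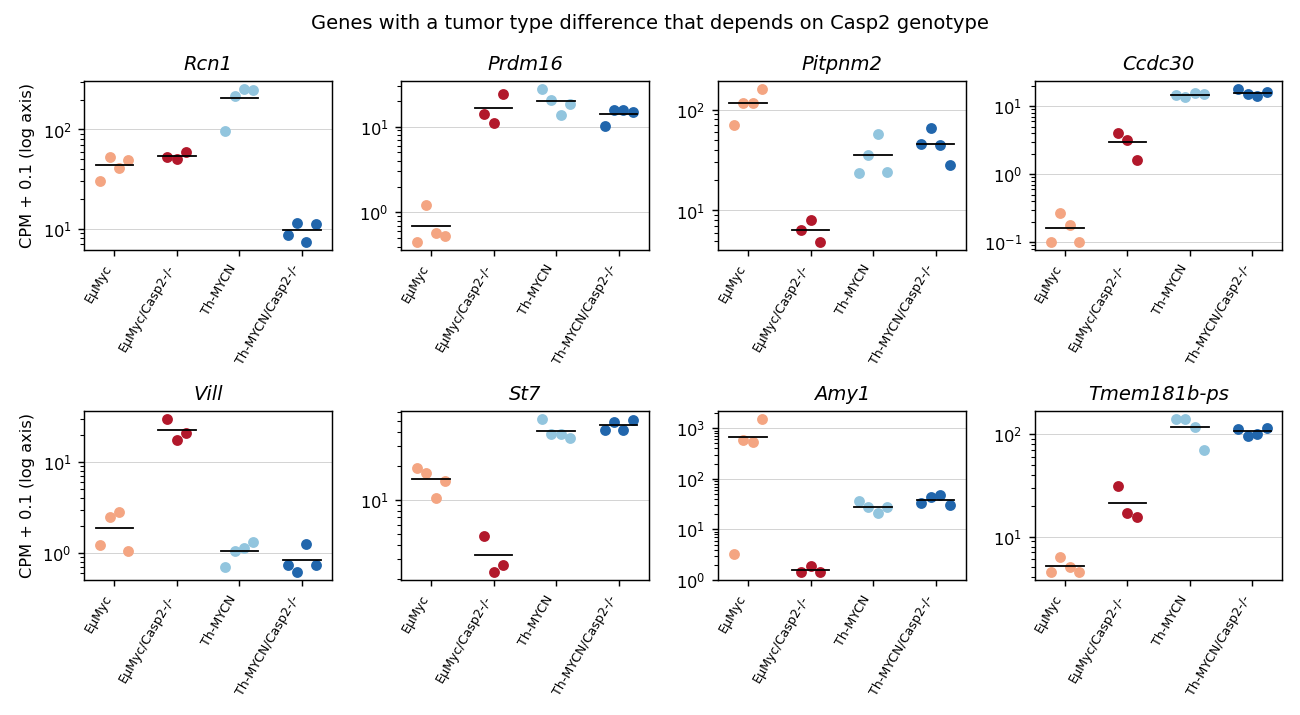
CPM + 0.1 (log axis) of the 8 genes with a called interaction in all 15 tumors, grouped by tumor type and Casp2 genotype, 1 point per tumor and a bar for the group mean. Rcn1 is lowest in the Casp2-/- neuroblastomas (7.23 to 11.2 CPM). For Prdm16 and Vill the Casp2-/- lymphomas lie above the lymphomas with Casp2, a comparison that was not itself tested.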

How the data were processed

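Per the labels and the study's methods, the authors sequenced poly(A) RNA of 15 primary tumors on an Illumina HiSeq instrument (single-end reads), checked reads with FastQC and counted reads per gene with STAR on mm10 (GRCm38). Raw counts per gene were deposited in 3 columns (both strands together, first strand, second strand). The second strand column was used, as named in the study. The first strand column held 50.7 to 51.2% of the reads of either strand in the Casp2-/- tumors, so reads of overlapping antisense genes cannot be told apart. The study used edgeR and lists likelihood ratio statistics. Here the quasi-likelihood test was used, with the likelihood ratio test as an alternative.

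From the deposited counts, genes over 1 CPM in at least 3 of 15 tumors were kept (14880 of 23329) and fitted with edgeR 4.0.16 in R 4.3.3 (TMM scaling, 1 mean for each of 4 groups, quasi-likelihood F test, Benjamini-Hochberg adjustment over all tested genes, with limma 3.58.1 beneath). The interaction is the tumor type difference in Casp2-/- tumors minus that in tumors with Casp2. The fit and the calling of genes, but not the other steps, were tested on simulated counts. Where a group had no read, the fold is a lower bound against 3 reads over the group. Alternatives were the likelihood ratio test, DESeq2 1.42.0, RLE scaling, other filters, the other count columns, sex as a covariate, the 7 tumors alone, a test against 2-fold (glmTreat) and leaving out each tumor. Sex came from the study's list of mice. Depth was 4940464 to 15681695 reads per Casp2-/- tumor, and counts of different tumors of a group differed by far more than sampling noise (chi-square per degree of freedom 30.0 to 76.0).

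Gene lists (623 entries, 620 in the tables, 556 tested, 384 called), paralog pairs and the tumors compared were chosen with earlier results of these data known. Genes were named by rule: Casp2, Myc, Mycn and Max; the 10 most abundant genes in each direction with no overlap and a log2 difference over 5; defining list members; members called against their list; the 8 genes with the smallest interaction p; and exchanged paralogs. These were 172 genes, and 109 further genes, mostly list members, were named after their values were seen. Older symbols were matched for 12 genes. A further EµMyc/Casp2-/- tumor that the study set aside for its outlying expression was not analysed here. Results on 8 genes are not reported here.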

Additional observations from a re-analysis of the deposited data

Results flagged for a closer look

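The 4 neuroblastoma values of 317 items (281 named genes and 36 summed lists) were checked by Dixon's criterion. In 27 of these sets a tumor was set apart from the other 3. Chance alone passes the criterion in about 1 set in 20 for normally distributed values, a rate that need not hold for CPM with zeros. A set with reads in only 1 tumor passes by necessity. The groups of 3 lymphomas were too small for it. Neuroblastoma 2 was high for lymphoid genes, with Cd79b at 3.34 CPM (others 0.386 to 0.504), Cd79a at 2.83 (0.675 to 0.975), Cd8a at 0.514 (0 to 0.0812) and Cr2 at 1.73 (0 to 0.244). It was also high for Cdkn2a at 11.3 (0.720 to 1.45) and low for Bcl2l11 at 21.7 (38.3 to 40.0). Pax5 was flagged on a single read in neuroblastoma 2, at 0.0643 CPM (0 in the others).

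Neuroblastoma 1 was high for muscle and fat genes, with Acta1 at 71.7 CPM (1.93 to 2.68), Myh4 at 58.9 (0.0643 to 0.325), Fabp4 at 48.3 (8.58 to 11.8) and a summed list of 363 (23.6 to 34.5). It was also high for Eya1 at 1035 (605 to 664) and the summed p53 and Arf list at 1111 (987 to 1008), and low for Syp at 343 (471 to 486), Ret at 17.2 (39.2 to 43.6) and Prdm16 at 10.0 (14.7 to 15.6).

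Neuroblastoma 3 was low for Mki67 at 447 CPM (821 to 834), Plcg1 at 92.4 (183 to 196) and Kdr at 2.41 (2.95 to 3.01), and high for Casp8 at 4.82 (2.31 to 2.66) and Slc16a1 at 103 (61.4 to 63.5). Neuroblastoma 4 was high for Lrmp at 5.77 (2.66 to 3.18), Paox at 3.41 (1.80 to 2.02) and Bub1b at 206 (134 to 143.9). It was also high for Pnmt at 8.69 (0 to 0.288) and the summed endothelial list at 97.5 (66.9 to 68.6). Abcc2 was flagged on a single read in neuroblastoma 4, at 0.0812 CPM (0 in the others).

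The tumor type difference depended on Casp2 genotype, by edgeR's interaction test, for 8 genes. The interaction, the log2 difference without Casp2 minus that with it, was 4.74 for Rcn1, 5.27 for Prdm16, -4.58 for Pitpnm2, 5.11 for Ccdc30, 4.01 for Vill, -2.49 for St7, -9.25 for Amy1 and 2.19 for Tmem181b-ps. The cause of these differences was not tested.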

How the results depend on the processing

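The count of genes higher in Casp2-/- lymphoma stayed within 1.5 times of 2937 except under the test against 2-fold, which gave 1913, and the count on the neuroblastoma side stayed within 1.5 times of 3964 throughout. Leaving out each tumor gave 2737 to 2997 and 3748 to 3950. The interaction count of 8 was 136 in the likelihood ratio test, the kind of statistic the study lists, 123 in DESeq2, 4 with the unstranded column, 4 with the first strand column, 5 with sex as a covariate, 4 against 2-fold and 4 to 28 without single tumors. RLE and DESeq2 scaling moved the median log2 difference of all genes from -0.05 to -0.08, and the lymphoma share of calls ran from 37.9 to 43.9% over the settings, against 42.6%. Over 17 alternatives, the 281 named genes gave 4565 values of the same direction and side of the threshold, 145 that lost a call, 30 that gained one and 29 that turned, and 75 genes had any such change. Of 72 counts of list members, 25 moved under some alternative.

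Values that turned belonged, Alas2 and Krt17 apart, to genes not called. With the first strand column they were Casp2 (-0.01), Mdm2 (0.03) and Cradd (0.01), and with sex as a covariate Pou2f2 (-0.29). Without single tumors the log2 difference ran from -0.09 to 0.29 for Casp2, -0.37 to 1.07 for C1qa, -0.28 to 0.93 for C1qb, -0.23 to 0.40 for C1qc, -0.20 to 0.63 for Col3a1, -0.12 to 0.49 for Dcn, -0.46 to 3.48 for Alas2, -3.17 to 5.69 for Krt17, -0.35 to 0.63 for Camk2d, -0.18 to 0.50 for Prdm16, -0.02 to 0.34 for Qdpr, -0.01 to 0.29 for Bcl2, -0.35 to 0.02 for Pidd1 (Lrdd), -0.47 to 0.07 for Cradd, -0.59 to 0.36 for Bcl11a, -0.17 to 0.66 for Pou2f2 and -0.14 to 0.10 for Smarca4. The cause was not tested. At the depth of lymphoma 1, 3 reads were worth 0.586 CPM, so lower values there rest on few reads. No paired analysis was possible because the tumors come from different mice and their replicate numbers only follow the order of the samples.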

Other observations

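Dntt, the enzyme that adds bases at recombination joints in lymphoid precursors, missed the filter because it was high in 1 tumor. It had 299 CPM in lymphoma 1, 0.584 CPM in lymphoma 2 and 0.404 CPM in lymphoma 3, and no more than 0.406 CPM in a neuroblastoma. Gzma, a cytotoxic granule protease, had 21.7 CPM in lymphoma 1, 2.25 CPM in lymphoma 2 and no read in lymphoma 3.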
